A study of Mus musculus with 10 samples.

Results

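The change that DZNep, a chemical inhibitor, produced in mouse prostate cancer organoids was set against the change that Tamoxifen, the genetic switch, produced in organoids of the same design, gene by gene. For each gene the mean log2 difference between Tamoxifen and EtOH was subtracted from the mean log2 difference between DZNep and DMSO. A positive difference therefore means that a gene stood higher after DZNep, relative to its own control, than after Tamoxifen. Genes entered with a mean of at least 1 RPKM (reads per kilobase of transcript, scaled to library size) in each of the 2 expression tables, and short RNA rows (MIR, SNORA, SNORD) were left out. This gave 10913 genes of 24016 present in both tables. The lowest mean among them was that of ADSSL1, at 1.00 RPKM, and the highest outside was that of RAD51C, at 0.999.

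Organoids, which are 3-dimensional cultures, came from the dorsal-lateral prostate of C57BL/6 mice 8 weeks after birth, and every culture was kept in 10 nM R1881, a synthetic androgen. All groups, controls included, carried MYC overexpression, floxed Ezh2 alleles and CreERT2, a Cre recombinase that Tamoxifen activates, driven by a PSA promoter. In the chemical experiment 3 libraries of organoids given 1 µM DZNep were set against 3 given DMSO, and in the genetic experiment 2 libraries given 1 µM Tamoxifen were set against 2 given ethanol (EtOH), all collected at 3 days. The series' stated purpose was to compare controls with organoids in which EZH2 was inhibited by either route. Only cells in which the PSA promoter is active can recombine, and what share of cells did so is not stated in the labels. Tamoxifen in organoids without Cre was not analysed here, so Cre-dependent and other actions of Tamoxifen cannot be told apart. The labels do not say that replicates were separate cultures, so p-values measure the spread between libraries, which may be technical.

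EZH2 is the methyltransferase of Polycomb repressive complex 2 (PRC2), which places the repressive mark H3K27me3 on histone H3 at developmental genes. DZNep is known to act further upstream: it blocks S-adenosylhomocysteine hydrolase, and the by-product that then accumulates inhibits many S-adenosylmethionine-dependent methyltransferases. DZNep can therefore reach enzymes other than EZH2, whereas the Cre switch is aimed at Ezh2 alone.

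The organoids expressed basal and luminal epithelial keratins in every library: KRT5 ran from 1688 to 2758 RPKM, KRT14 from 600.4 to 1463, KRT8 from 152 to 221 and KRT18 from 240.1 to 298. PBSN, a secretory product of mature luminal prostate cells, was listed at 0 throughout. The leukocyte marker PTPRC reached at most 0.00494 RPKM, the fibroblast collagen COL1A1 0.130 and the smooth muscle gene MYH11 0.0783, and CDH5 (endothelial) and CHGA (neuroendocrine) were listed at 0. Some other members of the same marker lists were expressed. Of the immune list, CD14 ran from 29.5 to 53.2 RPKM over all libraries and CD68 from 11.6 to 17.9. DCN (fibroblast) ran from 2.39 to 6.92, EGFL7 (endothelial) from 1.92 to 2.93 and ENO2 (neuroendocrine) from 3.96 to 7.77. Correlations within a group were at least 0.994. EtOH 1 stood apart from EtOH 2 on the first principal component of the genetic experiment (-15.4 against -5.90; Tamoxifen 8.58 and 12.7). Absolute depth is unknown from RPKM, and relative depth ran from 0.755 in DZNep 2 to 1.16 in DMSO 3, from a ratio that only 24.2% to 29.8% of weakly expressed genes followed.

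EZH2, the targeted gene, was measured at 30.4, 29.8 and 27.1 RPKM in DMSO and 22.5, 24.2 and 24.7 in DZNep. It stood at 27.9 and 34 in EtOH and 32 and 33.2 in Tamoxifen. DZNep libraries all lay below the DMSO libraries, whereas EtOH and Tamoxifen overlapped. The change was -0.28 (SE 0.06; adjusted p = 0.00749) after DZNep and 0.08 (SE 0.09; adjusted p = 0.603) after Tamoxifen, both from limma. Their difference was -0.36 (SE 0.11; adjusted p = 0.0417), with a 95% interval -0.60 to -0.11. Exact two-sided permutation tests gave p = 0.1 for DZNep and p = 1 for Tamoxifen, where the smallest possible values are 0.1 and 0.333. A value for the whole gene includes exons outside a floxed segment, so the Tamoxifen value does not check the deletion. The call in the difference was lost when any of 8 of the 10 libraries was left out (adjusted p 0.0510 to 0.183), the exceptions being DMSO 3 and EtOH 2.

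Many more genes were called after DZNep than after Tamoxifen. After DZNep 3388 genes changed (31.0% of those tested; 1993 rose and 1395 fell), and after Tamoxifen 708 (6.49%; 294 rose and 414 fell), at a limma adjusted p under 0.05. The difference itself was called for 2354 genes (21.6%), 1245 higher and 1109 lower after DZNep, with a median size of 0.425 on the log2 scale. Of these, 87 were higher and 30 lower by at least 1. Genes changed by both treatments numbered 287. They were 8.47% of the DZNep genes, where 6.49% of all tested genes were called after Tamoxifen. They were 40.5% of the Tamoxifen genes, where 31.0% of all tested genes were called after DZNep. Of those 287, 165 moved in the same direction (116 rose, 49 fell) and 122 in opposite directions (78 rose after DZNep and fell after Tamoxifen, 44 the reverse). As shares of all tested genes these 4 classes were 1.06%, 0.449%, 0.715% and 0.403%. A further 1413 genes changed after DZNep only (701 rose, 6.42%; 712 fell, 6.52%) and 313 after Tamoxifen only (85 rose, 0.779%; 228 fell, 2.09%), counting a gene here only where the difference was called too. Across the 10913 genes, which are not independent replicates, the changes had a Pearson r of 0.0609 and a Spearman rho of 0.0396. The arms were not equally powered: the genetic test had 2 residual degrees of freedom and the chemical one 4. A gene counted as "DZNep only" may therefore have a Tamoxifen change that the test missed. The called difference shows that the 2 changes were unequal, not that the Tamoxifen change was absent. With EtOH 2 left out, Tamoxifen called 2901 genes, with EtOH 1 left out 1222, without Tamoxifen 1 314 and without Tamoxifen 2 166. DZNep called 1958 genes without DMSO 2 and 2197 without DZNep 2. With no filter on low values 0 genes passed after Tamoxifen in limma (3232 at an unadjusted p under 0.05), so every Tamoxifen call holds only for the filtered genes.

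**Figure D1:**
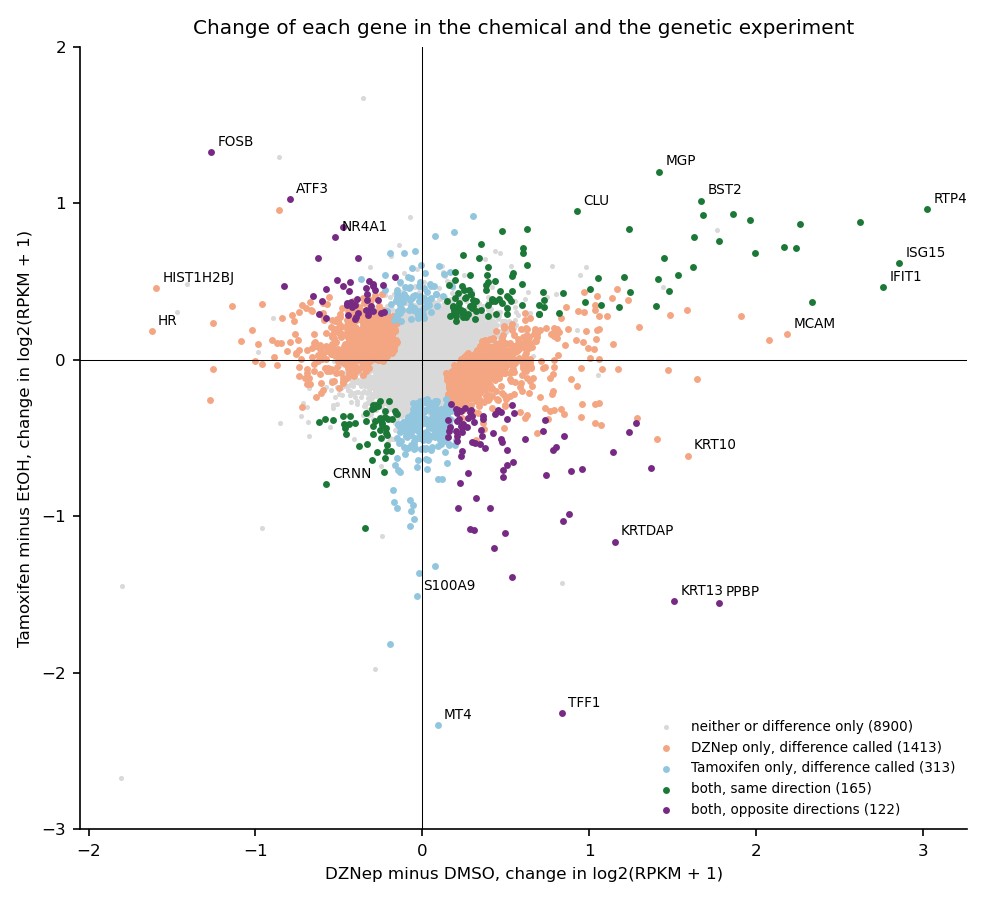
Each point is 1 of the tested genes, with its change after DZNep on the x axis and after Tamoxifen on the y axis, both as differences of mean log2(RPKM + 1), and colour gives the class. Interferon-induced genes such as RTP4 and ISG15 lie at the upper right, KRT13, PPBP and TFF1 at the lower right and FOSB and ATF3 at the upper left; 4 genes lie outside the plotted range.

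Of the 34 gene lists counted, interferon-stimulated genes had the most members that rose with both treatments. Type I interferon switches on antiviral genes through the interferon-stimulated response element in their promoters. Of 69 genes on the list 46 were tested; 44 rose after DZNep (18.3% of all tested genes rose), 28 rose after Tamoxifen (2.69% of all) and none of the 46 fell in either test. The median change was 1.06 after DZNep and 0.36 after Tamoxifen, against 0.01 and 0.04 over all genes. The difference was called higher for 36 members (11.4% of all genes were) and lower for 0, where 10.2% of all genes were lower. Thus 27 members rose with both treatments, and for 22 of these the rise was larger after DZNep.

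The promoters of ISG15, IFIT1 and BST2 are shown because each holds matches to 2 copies of GAAA with any 2 bases between them (GAAA, NN, GAAA), the core of the interferon-stimulated response element, and because the 3 genes rose with both treatments. Each sequence is the 250 bases before the RefSeq start in build GRCm38.p6, 5′ to 3′ on the gene's strand, with matches on either strand in capitals (overlapping matches run together).
ISG15: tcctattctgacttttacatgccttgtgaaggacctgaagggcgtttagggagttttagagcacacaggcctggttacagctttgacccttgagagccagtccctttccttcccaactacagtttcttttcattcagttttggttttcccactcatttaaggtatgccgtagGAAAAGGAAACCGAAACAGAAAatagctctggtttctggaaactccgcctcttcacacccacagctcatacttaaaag
IFIT1: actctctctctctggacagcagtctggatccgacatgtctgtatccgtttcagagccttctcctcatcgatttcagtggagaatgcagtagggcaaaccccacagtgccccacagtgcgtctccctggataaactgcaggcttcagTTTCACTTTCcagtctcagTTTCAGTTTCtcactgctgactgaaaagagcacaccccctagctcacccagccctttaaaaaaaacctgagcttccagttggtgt
BST2: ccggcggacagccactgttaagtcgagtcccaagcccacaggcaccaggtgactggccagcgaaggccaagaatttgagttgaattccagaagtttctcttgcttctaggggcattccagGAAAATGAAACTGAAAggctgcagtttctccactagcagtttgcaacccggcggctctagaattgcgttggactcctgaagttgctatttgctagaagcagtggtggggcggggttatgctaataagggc
They lie at chr4:156200819-156201068, reverse strand (ISG15), chr19:34640639-34640888, forward strand (IFIT1) and chr8:71537473-71537722, reverse strand (BST2). The motif was found in 12 of the 38 interferon-list promoters in the RefSeq table (31.6%), against 240 of 8297 promoters of tested genes (2.89%). It was present in 14 of 85 promoters of genes that rose with both treatments (16.5%) and in 26 of 534 of those that rose with DZNep only (4.87%). A match describes these letters and is not a binding site.

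ISG15, a ubiquitin-like modifier, measured 2.21, 2.05 and 2.21 RPKM in DMSO and 21.2, 21.6 and 22.9 in DZNep, and 2.38 and 2.22 in EtOH and 3.78 and 4.37 in Tamoxifen. Treated libraries lay above their controls in both experiments, with a wide gap after DZNep and a narrow one after Tamoxifen. The change was 2.86 after DZNep and 0.62 after Tamoxifen, a difference of 2.24 (SE 0.10; adjusted p = 3.78e-08). IFIT1, a binder of viral RNA, measured 1.34, 1.16 and 0.871 RPKM in DMSO and 13.6, 13.1 and 13.4 in DZNep, and 1.04 and 1.29 in EtOH and 1.87 and 2.09 in Tamoxifen, a difference of 2.30 (SE 0.13; adjusted p = 3.48e-07). The groups did not overlap in either experiment, but the Tamoxifen libraries stayed near 2 RPKM. RTP4, a chaperone of G protein-coupled receptors, measured 1.5, 0.786 and 1.6 RPKM in DMSO and 18, 17.7 and 16.7 in DZNep, and 1.14 and 1.28 in EtOH and 2.76 and 3.93 in Tamoxifen. Its difference was 2.07 (SE 0.20; adjusted p = 4.56e-05).

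Other members were closer to equal. BST2, or tetherin, which holds budding viruses at the cell surface, measured 10.5, 11 and 10.9 RPKM in DMSO and 34.5, 34.7 and 41 in DZNep, and 9.76 and 10.8 in EtOH and 19.6 and 24.3 in Tamoxifen. All treated libraries stood above all controls, and the changes of 1.67 and 1.02 left a difference of 0.66 (SE 0.13; adjusted p = 0.00437). OAS1A, an oligoadenylate synthetase, rose by 1.86 and 0.94, and the secreted glycoprotein LGALS3BP by 1.68 and 0.93. For 5 shared members the difference was not called: ADAR, UBA7, IFITM3, PML and TRIM14, named after their values were seen. For IFITM3, a membrane protein that restricts virus entry, the changes were 0.43 and 0.37 (difference 0.06, 95% interval -0.19 to 0.30). Another 14 members rose after DZNep only, among them the RNA sensors IFIH1 (1.06 after DZNep and 0.28 after Tamoxifen) and DDX58 (0.62 and 0.26). IRF1 was the member called after Tamoxifen (0.29) but not after DZNep (0.12, adjusted p = 0.113), and its difference of -0.17 was not called. Rises after Tamoxifen numbered 17 without Tamoxifen 1 and 11 without Tamoxifen 2. IFIT, OAS and class I genes include close copies, whose reads could have been split by the authors' counting.

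Most genes of MHC class I antigen presentation, which interferon also induces, rose after DZNep. Of 21 tested members 17 rose after DZNep and 5 after Tamoxifen, and the difference was higher for 10. In each comparison 0 were lower. Of all tested genes 18.3% rose after DZNep, 2.69% rose after Tamoxifen and 11.4% were higher in the difference. B2M, the light chain of every class I molecule, measured 637, 601 and 609.8 RPKM in DMSO and 1067, 1015 and 1057 in DZNep, and 693 and 517 in EtOH and 505 and 451 in Tamoxifen. DZNep libraries were all above DMSO, and Tamoxifen libraries were both below EtOH without passing the test. The difference was 1.09 (SE 0.14; adjusted p = 3.25e-04). The peptide transporter subunits TAP1 and TAP2 rose after DZNep (1.05 and 0.77) with Tamoxifen values of 0.41 and 0.16 that did not pass. The members that rose with both were H2-Q4, H2-T23, PSMB10, PSME1 and PSME2, and H2-Q4, a class I heavy chain, changed by 0.55 and 0.56 (difference -0.01, 95% interval -0.19 to 0.17). The rises after Tamoxifen became 14 without EtOH 2, 2 without Tamoxifen 1 and 1 without Tamoxifen 2, and the higher differences became 6 without DMSO 2 or Tamoxifen 1 and 5 without Tamoxifen 2. Sensors of double-stranded RNA and DNA followed with 13 of 24 higher after DZNep, 2 after Tamoxifen and 5 higher in the difference (IFIH1, IFI204, DDX58, TLR3 and TREX1); the kinase IKBKE was lower in the difference (-0.32), having risen after Tamoxifen only (0.34).

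Outside the interferon list, MGP, an inhibitor of tissue calcification, rose with both treatments by similar amounts. It measured 3.23, 1.67 and 2.2 RPKM in DMSO and 7.72, 7.01 and 8.96 in DZNep, and 1.31 and 2.38 in EtOH and 4.78 and 6.15 in Tamoxifen. Treated libraries were above controls throughout, by 1.42 and 1.20, and the difference of 0.22 was not called (adjusted p = 0.582, 95% interval -0.35 to 0.79). CLU, the chaperone clusterin, measured 384, 378 and 383 RPKM in DMSO and 710.3, 763 and 706 in DZNep, and 442 and 357 in EtOH and 769 and 769.6 in Tamoxifen, changes of 0.93 and 0.95. CLU was named after its values were seen, as was GDF15, a stress-induced cytokine, with 0.63 and 0.84. CD14, a co-receptor for bacterial lipopolysaccharide, rose by 0.44 and 0.50. Over all 116 genes that rose with both, the difference was also called for 40: 36 higher and 4 lower.

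Among the 49 shared falls were CRNN, a cornified envelope protein, CSTA1, a cystatin, and CCNE2, a cyclin that drives entry into S phase. CRNN measured 51.7, 71.1 and 70.1 RPKM in DMSO and 48.7, 40.2 and 38.7 in DZNep, and 65.6 and 52.6 in EtOH and 33.5 and 33.5 in Tamoxifen. Treated libraries were lower in both experiments, with changes of -0.58 and -0.79 and a difference of 0.22 (adjusted p = 0.440). CCNE2 changed by -0.47 and -0.43, CSTA1 by -0.46 and -0.48, and GNPDA2 and CHML by -0.47 and -0.44 after DZNep and -0.41 and -0.41 after Tamoxifen. After a correction of each library for the GC content of transcripts, described with the GC values at the end, CCNE2, CSTA1 and GNPDA2 were no longer called in both.

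A set of squamous differentiation genes rose after DZNep and fell after Tamoxifen. Basal epithelial cells that stratify switch on suprabasal keratins, desmosomal cadherins and precursors of the cornified envelope. Of 57 listed genes 36 were tested; 17 rose and 6 fell after DZNep (12.8% of all genes fell), while 0 rose and 17 fell after Tamoxifen (3.79% of all). The median change was 0.10 after DZNep and -0.42 after Tamoxifen. The difference was higher for 20 members and lower for 0, with a median of 0.70 against -0.01 over all genes. In all, 12 members moved in opposite directions: KRT13, KRTDAP, KRT16, RPTN, DSG3, S100A7A, DMKN, TGM1, KRT4, SBSN, DSC3 and KRT6B. In bulk organoids fewer cells of a type and less RNA per cell cannot be told apart.

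The promoters of KRT13 and KRTDAP are shown for their matches to TGANTCA, the core of the AP-1 element, with capitals as above.
KRT13: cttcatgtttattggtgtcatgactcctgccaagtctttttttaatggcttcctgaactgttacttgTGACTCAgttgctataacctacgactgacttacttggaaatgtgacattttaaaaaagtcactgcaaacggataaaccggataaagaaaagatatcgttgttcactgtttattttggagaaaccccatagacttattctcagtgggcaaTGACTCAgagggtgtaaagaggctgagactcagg
KRTDAP: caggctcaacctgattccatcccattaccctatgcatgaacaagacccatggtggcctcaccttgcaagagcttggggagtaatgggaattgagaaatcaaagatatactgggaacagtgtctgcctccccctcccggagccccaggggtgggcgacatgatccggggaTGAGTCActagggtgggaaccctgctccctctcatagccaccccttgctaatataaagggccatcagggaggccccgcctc
They lie at chr11:100120578-100120827, reverse strand (KRT13) and chr7:30787655-30787904, forward strand (KRTDAP), in GRCm38.p6. TGANTCA was found in 11 of the 21 squamous promoters in the RefSeq table (52.4%), in 447 of 8297 promoters of tested genes (5.39%) and in 11 of 52 promoters of genes that rose after DZNep and fell after Tamoxifen (21.2%).

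KRT13, a keratin of suprabasal mucosal cells, measured 60.1, 64.4 and 58.2 RPKM in DMSO and 185, 175 and 166 in DZNep, and 61.3 and 59.5 in EtOH and 21.9 and 18.4 in Tamoxifen. The control groups stood at nearly the same level, DZNep libraries were all far above them and Tamoxifen libraries far below. The changes were 1.51 and -1.54, a difference of 3.05 (SE 0.11; adjusted p = 9.85e-09). KRTDAP, a keratinocyte differentiation-associated protein, measured 13.6, 7.15 and 9.37 RPKM in DMSO and 26.6, 22.2 and 20.3 in DZNep, and 7.61 and 9.12 in EtOH and 3.66 and 2.73 in Tamoxifen. DZNep libraries were all above DMSO and Tamoxifen libraries both below EtOH, although DMSO 1 stood well above the other DMSO libraries, and the difference was 2.32 (SE 0.27; adjusted p = 1.37e-04). KRT16, a keratin of activated and hyperproliferative epidermis, measured 46.4, 50.6 and 45.8 RPKM in DMSO and 84.8, 86.9 and 94.1 in DZNep, and 51.2 and 50.2 in EtOH and 27 and 23.4 in Tamoxifen, a difference of 1.87 (SE 0.10; adjusted p = 2.79e-07).

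KRT10 and KRT1, the paired keratins of suprabasal epidermis, rose after DZNep by 1.59 and 1.41. Their Tamoxifen values of -0.61 (adjusted p = 0.0571) and -0.51 (adjusted p = 0.0531) missed the threshold, and the differences were 2.20 and 1.92. KRT1 measured 2.49, 2.58 and 2.57 RPKM in DMSO and 10.1, 7.51 and 7.87 in DZNep, and 2.14 and 2.21 in EtOH and 1.51 and 0.983 in Tamoxifen. DMKN, or dermokine, rose by 0.32 after DZNep and fell after Tamoxifen, with a change of -0.89. Not all cornified envelope genes took part: PPL, LOR, PKP1 and KRT80, named after their values were seen, fell after DZNep (by 0.28, 0.33, 0.32 and 0.30 on the log2 scale) and did not pass after Tamoxifen. The falls after Tamoxifen became 26 without EtOH 2, and the falls after DZNep became 2 without DMSO 2 and 3 without DZNep 3.

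**Figure D2:**
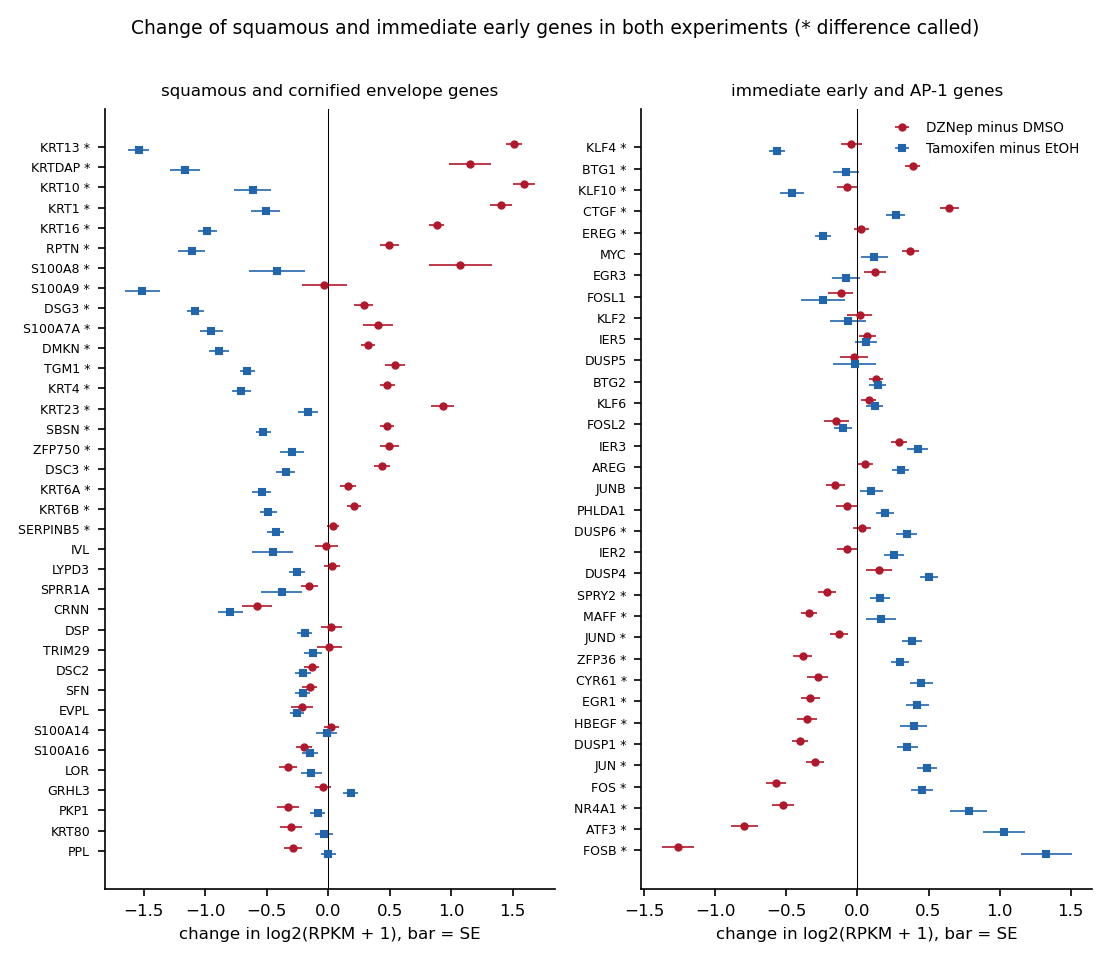
Changes after DZNep (circles) and Tamoxifen (squares) in log2(RPKM + 1), with standard errors as bars, for the 36 tested squamous genes (left) and 34 immediate early genes (right), ordered by their difference. DZNep points lie to the right of Tamoxifen points for 30 squamous genes, KRT13 among them, but for only 10 immediate early genes, with FOSB far to the left.

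Differences were also positive for basal keratins. KRT14 measured 785, 819.9 and 753 RPKM in DMSO and 1385, 1407 and 1463 in DZNep, and 872 and 812 in EtOH and 601 and 600.4 in Tamoxifen, so DZNep libraries lay above and Tamoxifen libraries below their controls. Its difference was 1.34 (SE 0.09; adjusted p = 3.19e-06), that of KRT17 1.32 and that of KRT5 0.72. Laminin receptors and laminin subunits of the basal list were instead lower in the difference, among them ITGA3 (-0.84), ITGB4 (-0.41) and LAMB3 (-0.48). Of 26 basal markers 7 were higher and 6 lower, with a median of -0.07. Of 24 luminal markers 4 were higher (among them PSCA, KRT8 and HOXB13) and 2 lower (CLDN7, -0.66, and CLDN3, -0.45). Of all tested genes 11.4% were higher in the difference and 10.2% lower, so the luminal counts were near the shares of all genes. HPGD, which inactivates prostaglandins, changed by 0.28 and -0.73.

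The genes with the largest opposite differences were a chemokine, PPBP, and a mucosal gene, TFF1. PPBP, a neutrophil-attracting chemokine, measured 36.6, 40.6 and 32.1 RPKM in DMSO and 134, 132 and 116 in DZNep, and 43.1 and 36.7 in EtOH and 13.4 and 12.4 in Tamoxifen. The controls overlapped, DZNep libraries were all above them and Tamoxifen libraries all below, and the difference was 3.33 (SE 0.14; adjusted p = 3.78e-08). TFF1, a trefoil peptide of mucus-secreting epithelium, measured 192, 158 and 146 RPKM in DMSO and 316, 333 and 242 in DZNep, and 166 and 174 in EtOH and 37.4 and 32.1 in Tamoxifen. Its fall after Tamoxifen (-2.26) was larger than its rise after DZNep (0.84), and the difference was 3.10 (SE 0.19; adjusted p = 8.81e-07). UPK3A, a urothelial plaque protein, changed by 1.37 and -0.69, and PSCA, a surface protein of prostate and urothelium, by 0.51 and -0.58.

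Of 22 mucosal and urothelial genes tested, 16 rose and 1 fell after DZNep and 6 rose and 6 fell after Tamoxifen. Over all tested genes 18.3% rose and 12.8% fell after DZNep, and 2.69% rose and 3.79% fell after Tamoxifen. The 5 that moved in opposite directions were TFF1, UPK3A, GSTO1, PSCA and ANXA8, while PIGR, CLU, LY6A, LCN2 and LY6C1 rose with both. SCGB1A1, a secretoglobin, rose after DZNep only, from 7.43, 7.22 and 8.22 RPKM to 31.9, 29 and 33.6, a difference of 1.64 (SE 0.13; adjusted p = 7.83e-06). Of 14 chemokine and IL-1 family genes 8 rose after DZNep, and 1 rose and 4 fell after Tamoxifen. The rises after Tamoxifen became 4 without EtOH 1 or EtOH 2, 3 without Tamoxifen 1 and 3 with GC correction. CXCL3, another neutrophil chemokine, measured 13.9, 13.3 and 13.5 RPKM in DMSO and 34.7, 34.4 and 34 in DZNep, and 14.7 and 16.2 in EtOH and 11 and 11.9 in Tamoxifen. It changed by 1.28 and -0.40, and the cytokine IL18 by 0.96 and -0.70. Other genes in this direction were 2210407C18RIK (1.87), the p53 targets TRP53INP1 (1.18) and CCNG1 (0.83), and the cystine transporter SLC7A11 (0.64).

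**Figure D3:**
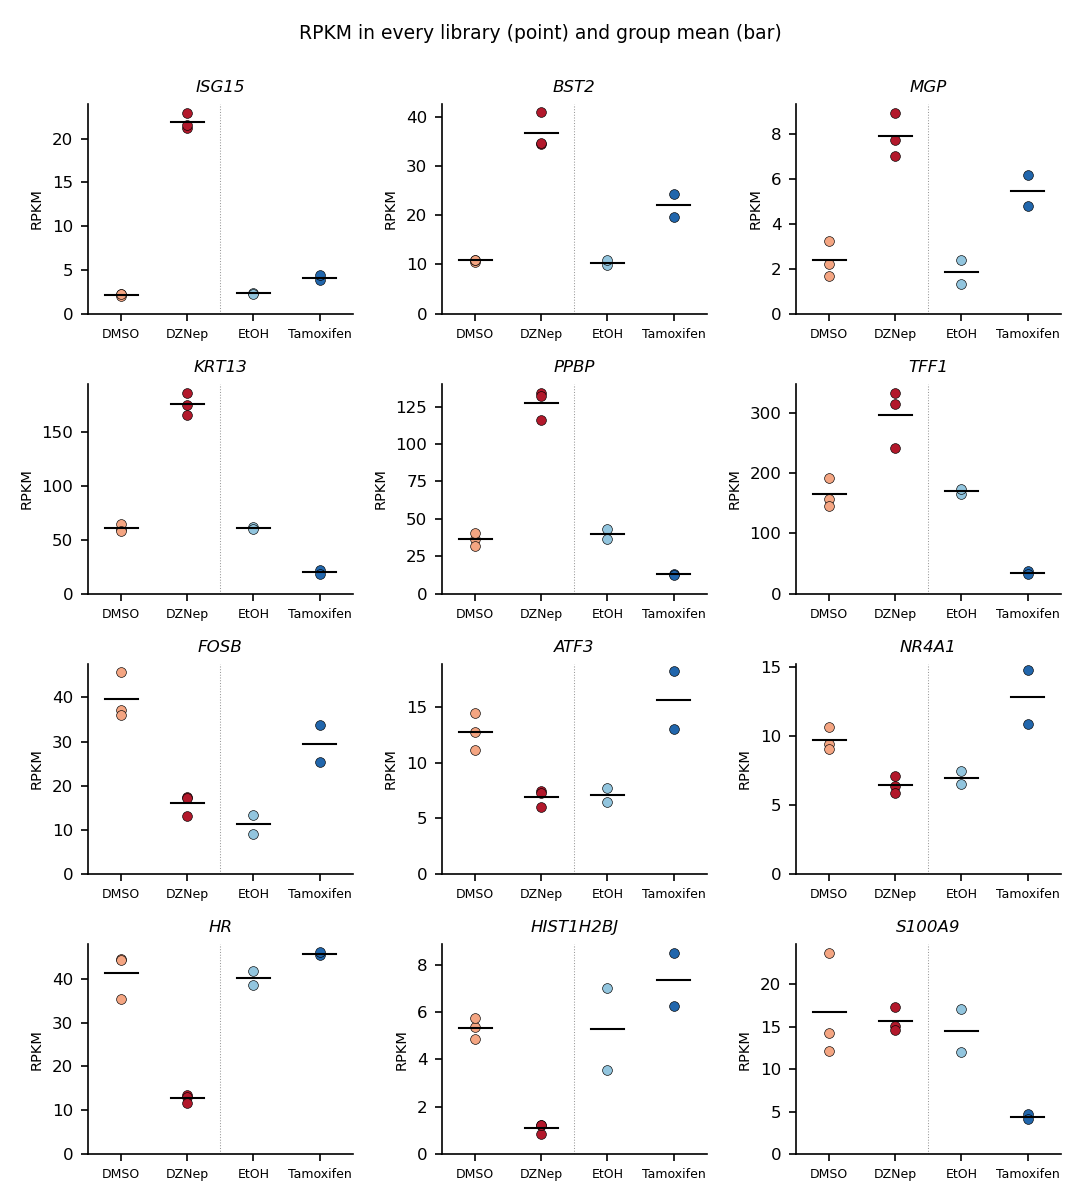
RPKM of 12 genes in every library (points) with group means (bars), on axes that start at 0. ISG15, BST2 and MGP were higher in treated libraries of both experiments, KRT13, PPBP and TFF1 rose after DZNep and fell after Tamoxifen, FOSB, ATF3 and NR4A1 did the reverse, HR and HIST1H2BJ fell after DZNep only and S100A9 after Tamoxifen only.

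A set of immediate early genes did the reverse. These genes, many encoding AP-1 subunits and other transcription factors, are switched on within minutes by growth factor and stress signals. Of 34 tested, 4 rose and 12 fell after DZNep, and 14 rose and 2 fell after Tamoxifen. Over all tested genes 18.3% rose and 12.8% fell after DZNep, and 2.69% rose and 3.79% fell after Tamoxifen. The median changes were -0.07 and 0.22, and the difference was higher for 5 members and lower for 14 (11.4% and 10.2% of all tested genes). The 9 that moved in opposite directions all fell after DZNep: FOSB, ATF3, NR4A1, FOS, JUN, DUSP1, EGR1, CYR61 and ZFP36.

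The promoters of FOSB, ATF3 and NR4A1 are shown for matches to TGACGNA, a motif built on the first bases of the cyclic AMP response element and picked after these sequences had been looked at; a full TGACGTCA does not itself match it.
FOSB: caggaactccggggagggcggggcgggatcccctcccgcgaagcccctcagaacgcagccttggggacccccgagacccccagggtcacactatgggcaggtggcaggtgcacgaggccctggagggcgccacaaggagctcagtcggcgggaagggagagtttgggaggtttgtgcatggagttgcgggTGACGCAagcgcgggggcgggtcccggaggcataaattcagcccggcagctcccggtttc
ATF3: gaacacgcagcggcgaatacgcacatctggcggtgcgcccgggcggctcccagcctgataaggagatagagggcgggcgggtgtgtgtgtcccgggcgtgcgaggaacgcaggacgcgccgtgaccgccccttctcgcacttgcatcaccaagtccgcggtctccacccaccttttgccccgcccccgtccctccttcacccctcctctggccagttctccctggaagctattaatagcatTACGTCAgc
NR4A1: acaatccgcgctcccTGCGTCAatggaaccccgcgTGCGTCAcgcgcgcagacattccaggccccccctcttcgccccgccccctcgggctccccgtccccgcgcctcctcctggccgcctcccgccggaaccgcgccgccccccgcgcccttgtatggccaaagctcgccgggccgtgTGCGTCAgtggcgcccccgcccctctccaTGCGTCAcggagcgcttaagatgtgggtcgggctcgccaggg
They lie at chr7:19310046-19310295, reverse strand (FOSB), chr1:191183334-191183583, reverse strand (ATF3) and chr15:101266596-101266845, forward strand (NR4A1), in GRCm38.p6, with capitals as above. The motif was in 6 of 22 immediate early promoters (27.3%), in 741 of 8297 promoters of tested genes (8.93%) and in 5 of 35 promoters of genes that fell after DZNep and rose after Tamoxifen (14.3%). Because it was picked from these promoters, its share among them is no separate evidence. The full TGACGTCA was in 4 of the 22 (18.2%), 264 of the 8297 (3.18%) and 1 of the 35 (2.86%). A CArG box (CC, 6 bases of A or T, GG) was in 2 of the 22 (9.09%), 116 of the 8297 (1.4%) and 1 of the 35 (2.86%).

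FOSB, an AP-1 subunit, measured 45.7, 37.2 and 36 RPKM in DMSO and 17.5, 17.3 and 13.1 in DZNep, and 9.12 and 13.3 in EtOH and 25.2 and 33.7 in Tamoxifen. DMSO libraries were the highest of all and EtOH libraries the lowest but for an overlap with DZNep. The changes were -1.26 and 1.33, and the difference was -2.59 (SE 0.23; adjusted p = 1.99e-05). ATF3, a stress-induced transcription factor, measured 14.5, 12.8 and 11.2 RPKM in DMSO and 7.48, 7.31 and 6.07 in DZNep, and 6.45 and 7.73 in EtOH and 13 and 18.3 in Tamoxifen, a difference of -1.82 (SE 0.19; adjusted p = 5.87e-05). NR4A1, an orphan nuclear receptor, measured 10.6, 9.4 and 9.1 RPKM in DMSO and 7.13, 6.39 and 5.86 in DZNep, and 7.44 and 6.49 in EtOH and 10.9 and 14.8 in Tamoxifen, a difference of -1.31 (SE 0.16; adjusted p = 2.03e-04). For all 3 genes every DMSO library stood above every EtOH library. Levels were not tested across tables, and how far the control levels take part in the opposite changes was not tested.

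FOS, the partner of JUN in AP-1, changed by -0.58 and 0.45, from 269, 260.5 and 255 RPKM in DMSO and 141 and 159 in EtOH. EGR1, a zinc finger transcription factor, changed by -0.33 and 0.42 and DUSP1, a phosphatase of MAP kinases, by -0.40 and 0.35. KLF4, a factor of epithelial differentiation, differed from these: it did not pass after DZNep (-0.04) and fell after Tamoxifen (-0.57). The rises after Tamoxifen became 9 with GC correction or without Tamoxifen 1 and 4 without Tamoxifen 2, while members higher in the difference became 2 or 3 without EtOH 1, Tamoxifen 2, DZNep 2 or Tamoxifen 1, and those lower in the difference stayed between 12 and 16 over the libraries left out. Related NF-kB and TNF response genes had 7 rises and 3 falls of 27 after DZNep, 7 rises after Tamoxifen and 6 members lower in the difference: TNFAIP2 (-0.80), TNFAIP3 (-0.54), NFKBIA (-0.41), RELB (-0.38), ICAM1 (-0.32) and NFKB1 (-0.28). Of all tested genes 18.3% rose and 12.8% fell after DZNep, 2.69% rose after Tamoxifen and 10.2% were lower in the difference. The NF-kB falls after DZNep were near the share of all genes. The NF-kB rises after Tamoxifen became 11 without EtOH 1 or EtOH 2, 4 without Tamoxifen 1 and 1 without Tamoxifen 2, the rises after DZNep became 4 without DMSO 2, the falls after DZNep became 1 without DMSO 2, DMSO 3, DZNep 1 or DZNep 2, and the lower differences became 3 without Tamoxifen 2.

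Some matrix and signalling genes also fell after DZNep and rose after Tamoxifen. LAMB1, a laminin chain of the basement membrane, measured 3.46, 4.24 and 4.25 RPKM in DMSO and 1.82, 1.91 and 1.66 in DZNep, and 3.99 and 4.04 in EtOH and 5.74 and 6.19 in Tamoxifen. DZNep libraries were all below and Tamoxifen libraries all above their controls, and the difference was -1.30 (SE 0.11; adjusted p = 1.70e-05). WIF1, a secreted WNT inhibitor, measured 3.62, 4.68 and 4.46 RPKM in DMSO and 2.49, 2.53 and 2.19 in DZNep, and 4.46 and 4.74 in EtOH and 7.59 and 8.02 in Tamoxifen, a difference of -1.27 (SE 0.12; adjusted p = 4.13e-05). PHYHD1, a dioxygenase, changed by -0.51 and 0.51. Of 31 matrix and transition genes tested, 6 were higher in the difference and 9 lower, where 11.4% and 10.2% of all tested genes were. The basement membrane genes COL4A2 (-0.67), LAMB2 (-0.66) and AGRN (-0.66) were among the 9.

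**Figure D4:**
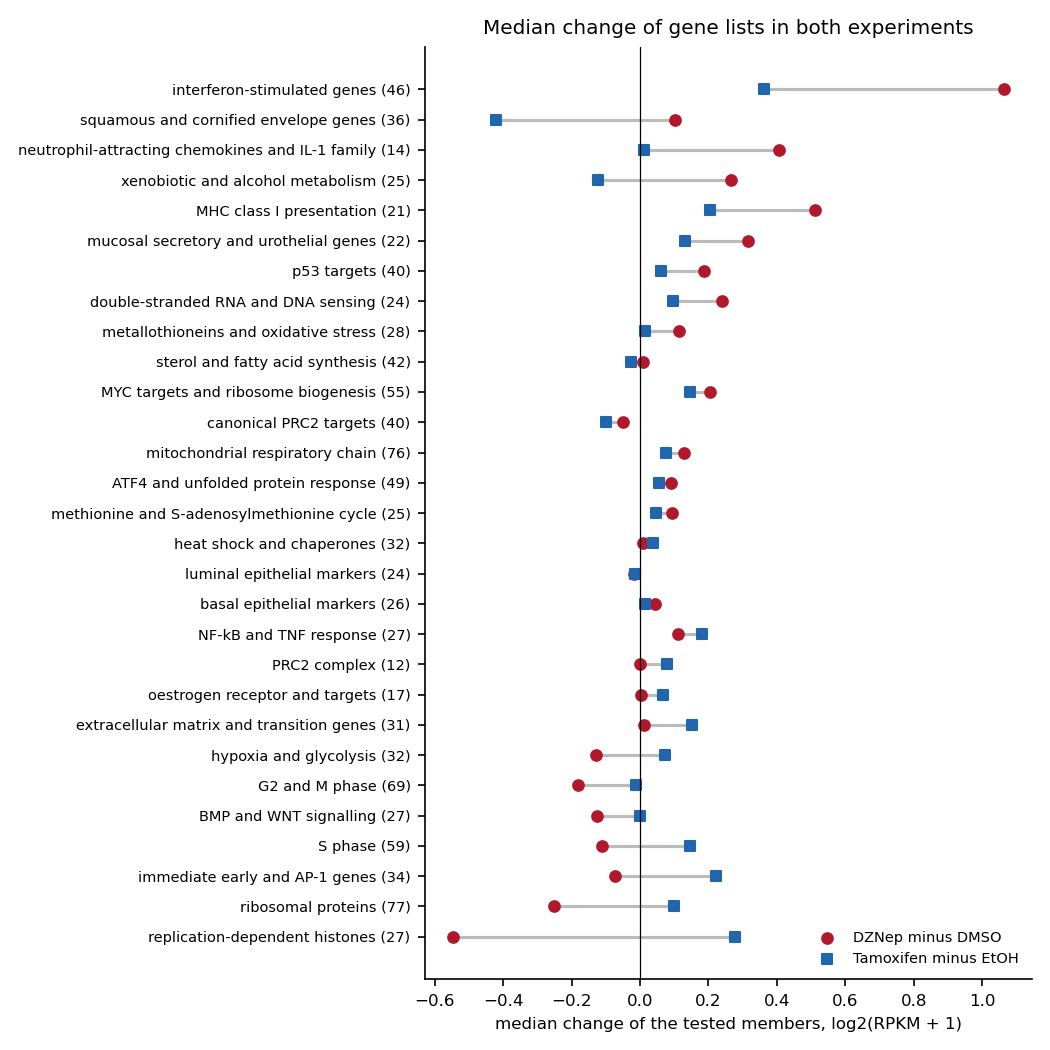
Median change of the tested members of 29 gene lists (each with at least 10 tested members, number in parentheses) after DZNep (circles) and Tamoxifen (squares), in log2(RPKM + 1), ordered by the median difference. Interferon-stimulated genes are right of 0 for both treatments, squamous genes lie on either side of 0, and histone and ribosomal protein genes are left of 0 for DZNep alone.

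Genes changed after DZNep only were led, by size of the difference, by KRT10 and MCAM among the rises and by HIST1H2BJ, the non-coding SNHG9 and HR among the falls. MCAM, a cell adhesion molecule, measured 0.873, 0.673 and 0.860 RPKM in DMSO and 7.25, 7.16 and 7.18 in DZNep, and 0.935 and 1.02 in EtOH and 1.17 and 1.26 in Tamoxifen. DZNep libraries rose clear of DMSO while Tamoxifen libraries were just above EtOH, and the difference was 2.02 (SE 0.10; adjusted p = 1.38e-07). All DMSO libraries lay under 1 RPKM, so in the chemical experiment MCAM met the filter only through its DZNep libraries. IFI27L2A, an interferon-induced gene that was not on the list, rose by 2.08 with a Tamoxifen change of 0.13 (adjusted p = 0.265). HR, a corepressor of skin and hair follicle, measured 35.4, 44.6 and 44.3 RPKM in DMSO and 13.6, 12.9 and 11.6 in DZNep, and 41.7 and 38.7 in EtOH and 45.4 and 46.2 in Tamoxifen. DZNep libraries were all below DMSO, EtOH and Tamoxifen were close, and the difference was -1.81 (SE 0.13; adjusted p = 4.39e-06).

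Most tested replication-dependent histone genes fell after DZNep. They are transcribed in S phase, and their mRNAs end in a stem-loop instead of a poly(A) tail, so a poly(A)-selected library would see only a part of them. Of 27 tested, 2 rose and 17 fell after DZNep, 0 rose and 1 fell after Tamoxifen, and in the difference 2 were higher and 19 lower (median -0.79). With a mean of at least 5 RPKM required, only 3 members remained. Of these 1 rose and 0 fell after DZNep, and 1 was higher and 0 lower in the difference. The falls after DZNep therefore rest on weakly expressed members. HIST1H2BJ, an H2B gene, measured 5.38, 5.73 and 4.86 RPKM in DMSO and 1.21, 0.860 and 1.22 in DZNep, and 3.53 and 7.0 in EtOH and 6.25 and 8.48 in Tamoxifen. DZNep libraries were far below DMSO and the genetic groups overlapped, and the difference was -2.05 (SE 0.26; adjusted p = 2.89e-04). The H3 genes HIST1H3C and HIST1H3A had differences of -1.49 and -1.48, while HIST1H2BC went the other way, at 0.47 and -0.51. Summed levels were taken over all 64 measured genes of the list, of which 37 lay under the filter. They were 95.9 to 114 RPKM in DMSO, 68.9 to 74.6 in DZNep, 93.3 to 124 in EtOH and 128 to 132 in Tamoxifen. Members lower in the difference numbered 11 without EtOH 1 and 10 without Tamoxifen 2, and without EtOH 2 16 members rose after Tamoxifen; near-identical copies could have been split in counting.

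Most ribosomal protein genes also fell after DZNep. Of 77 tested, 0 rose and 50 fell (median change of the 77 -0.25), whereas 0 rose and 1 fell after Tamoxifen (median 0.10). The difference was lower for 41 and higher for 1. RPS19 and RPS14, of the small subunit, had differences of -0.66 and -0.62. The member that was higher, RPL26, is unstable: it measured 1435 and 181 RPKM in EtOH and 19.7 and 15.1 in Tamoxifen, and RPL34 measured 54.7 and 286 in EtOH and 444 and 364 in Tamoxifen. Both belong to a family with many near-identical copies and are uncertain. The falls after DZNep numbered 22 without DMSO 2, 29 without DZNep 1 and 24 without DZNep 2, and without EtOH 2 29 members rose after Tamoxifen. The number lower in the difference also depended on single libraries: it was 17 without DMSO 2, 22 without DZNep 1, 21 without DZNep 2, 11 without EtOH 1, 16 without Tamoxifen 1 and 8 without Tamoxifen 2. The median difference lay between -0.45 and -0.24 over the alternatives tried.

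A minority of cell cycle genes fell after DZNep, by small amounts. Of all tested genes 12.8% fell after DZNep and 10.2% were lower in the difference. Of 59 S phase genes 15 fell after DZNep, 2 rose and 1 fell after Tamoxifen, and 17 were lower in the difference, with DZNep below Tamoxifen for all 59. CDT1, a replication licensing factor, measured 22.9, 23 and 21 RPKM in DMSO and 16.8, 16.9 and 16 in DZNep, and 20.4 and 20.8 in EtOH and 21.7 and 25.2 in Tamoxifen, a difference of -0.58 (SE 0.10; adjusted p = 0.00156). E2F1, the activator of S phase genes, had a difference of -0.54. Of 69 G2 and M phase genes 25 fell and 1 rose after DZNep, 0 passed after Tamoxifen and 12 were lower in the difference, among them MYBL2 (-0.56) and TACC3 (-0.48). The S phase genes lower in the difference numbered 11 without DMSO 2, 7 without EtOH 1 and 4 without Tamoxifen 2, and without EtOH 2 21 of them rose after Tamoxifen. The G2 and M phase genes lower in the difference numbered 4 to 7 without any of DMSO 1, DMSO 2, DZNep 1, DZNep 2, EtOH 1 or Tamoxifen 2, and those that fell after DZNep ran from 15 without DMSO 2 to 38 without DMSO 3. Without EtOH 2 the Tamoxifen comparison called 9 members of this list higher and 2 lower, and without EtOH 1 it called 5 lower.

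Counts of growth and metabolism genes are read against all genes tested, of which 18.3% rose after DZNep and 11.4% were higher in the difference. MYC targets and ribosome biogenesis genes had 31 of 55 higher after DZNep and 1 after Tamoxifen, but only 5 were higher in the difference, among them ODC1, which starts polyamine synthesis (0.54), and NOP10 (0.54). Their medians, 0.20 and 0.14, were close. Mitochondrial respiratory chain genes had 19 of 76 higher and 1 lower after DZNep, 0 after Tamoxifen and 5 higher in the difference, a share below that of all genes, led by NDUFA12 (0.57) and NDUFA1 (0.47). Xenobiotic and alcohol metabolism genes had 13 of 25 higher after DZNep, 1 lower after Tamoxifen and 11 higher in the difference. ADH7, an alcohol and retinol dehydrogenase, measured 116, 98.7 and 96.4 RPKM in DMSO and 165, 163 and 179 in DZNep, and 107 and 127 in EtOH and 99.3 and 98.4 in Tamoxifen. DZNep libraries stood above all others, and the difference was 0.94 (SE 0.12; adjusted p = 3.40e-04); for the glutathione transferase GSTA3 it was 1.15 and for the sulfotransferase SULT1A1 1.00. Without DMSO 1 the members higher in the difference numbered 18, without EtOH 1 6 fell after Tamoxifen, and without EtOH 2 3 rose and 4 fell.

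Targets of p53 had 20 of 40 higher and 2 lower after DZNep, 2 higher and 3 lower after Tamoxifen, and 13 higher and 2 lower in the difference. Over all tested genes 18.3% rose and 12.8% fell after DZNep, and 2.69% rose and 3.79% fell after Tamoxifen. In the difference 11.4% of all tested genes were higher and 10.2% lower. PTP4A3, a phosphatase, had a difference of 0.92, and the cyclin-dependent kinase inhibitor CDKN1A of 0.34. The higher differences of the p53 list numbered 7 without EtOH 2, 8 without Tamoxifen 1 and 6 without Tamoxifen 2, and its rises after Tamoxifen numbered 9 without EtOH 2. Of BMP and WNT signalling genes 12 of 27 fell and 1 rose after DZNep, 2 fell after Tamoxifen and 7 were lower in the difference. ID3 and ID1, direct targets of BMP signalling that block basic helix-loop-helix factors, were among the 7. ID3 measured 70.0, 77.1 and 79.6 RPKM in DMSO and 47.4, 49.6 and 46.6 in DZNep, and 74.7 and 93.6 in EtOH and 94.8 and 92.8 in Tamoxifen. DZNep libraries were all below DMSO, the genetic groups overlapped, and the difference was -0.81 (SE 0.12; adjusted p = 7.52e-04); for ID1 it was -0.66.

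Changes after Tamoxifen only were fewer. MT4, a metallothionein of stratified squamous epithelium, was listed at 4.73 and 5.71 RPKM in EtOH and at 0 and 0.509 in Tamoxifen, against 5.42, 4.69 and 3.93 in DMSO and 4.41, 4.27 and 6.66 in DZNep. Only the Tamoxifen libraries stood apart, and the fitted difference was 2.43 (SE 0.26; adjusted p = 7.37e-05). S100A9, a calprotectin subunit, measured 23.7, 14.2 and 12.1 RPKM in DMSO and 17.4, 15.1 and 14.7 in DZNep, and 12.1 and 17 in EtOH and 4.66 and 4.14 in Tamoxifen. Tamoxifen libraries were below all 8 others, with a difference of 1.48 (SE 0.29; adjusted p = 0.00429). KLRA33 fell by 1.82 on the log2 scale after Tamoxifen. Rises after Tamoxifen only included ETV4, an ETS transcription factor (0.68 after Tamoxifen, -0.19 after DZNep), the proprotein convertase PCSK6 (0.68 and -0.11), OLFM4, a secreted glycoprotein (0.54 and -0.23), and AA465934 (0.51 and -0.37).

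Of the 40 canonical PRC2 targets tested, 0 were called as rises after both treatments, where 1.06% of all tested genes were. At that share, 0 of 40 says little about these targets. As falls after both 3 were called, where 0.449% of all tested genes were. Of the 12 complex members tested, 1 rose and 3 fell after DZNep, 0 passed after Tamoxifen, and EZH2 and PHF19 were lower in the difference (PHF19 -0.40, adjusted p = 0.0267). EED and SUZ12, the other core subunits, had differences of 0.13 and -0.15, neither called, and EZH1, the paralogous enzyme, of 0.23. Of 101 listed target genes 40 were tested and 61 lay under the filter. Of the 40, 5 rose and 10 fell after DZNep (18.3% and 12.8% of all tested genes did). After Tamoxifen 0 rose and 6 fell (2.69% and 3.79% of all), and 7 were higher and 5 lower in the difference (11.4% and 10.2% of all). HOXA9, SOX7 and the cell cycle inhibitor CDKN1C, named after their values were seen, fell with both treatments: SOX7 changed by -0.40 and -0.41, HOXA9 by -0.24 and -0.40, and CDKN1C by -0.25 and -0.50. SOX2, a stem cell factor, fell after Tamoxifen only (-0.40; 0.16 after DZNep). With GC correction 11 targets were higher and 3 lower in the difference. Targets silent in every group are not seen by this filter.

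The GC content of transcripts moved with the genetic arm. It was known for 10357 genes (94.9%). Across these genes the Spearman rho of GC content with the change was 0.386 for Tamoxifen, -0.0806 for DZNep and -0.318 for the difference. With genes split into 10 equal bins of GC content, the median Tamoxifen change was -0.13 in the lowest bin and 0.09 in the highest, and the difference was called higher for 26.1% and 3.96% of genes. Within the genetic table GC content correlated with a gene's deviation from its mean at 0.320 and 0.343 in the Tamoxifen libraries and at -0.300 and -0.309 in EtOH; DZNep 3 stood at -0.362 in the chemical table. Both Tamoxifen libraries share the trend, so it and the Tamoxifen response cannot be told apart. After a correction per library, chosen once the data had been seen, 1206 genes were higher and 942 lower (11.6% and 9.10% of 10357), and 506 changed after Tamoxifen (4.89%; 1.74% rose and 3.15% fell).

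The correction moved genes between classes. Of the 228 genes that fell after Tamoxifen only (median GC content 43.8%), 117 kept that class, and of 49 shared falls 32 did; 68 of 116 shared rises and 59 of 78 genes with opposite changes and a rise after DZNep did, and 19 of 44 with the reverse. With the correction, interferon genes had 37 higher and 0 lower, squamous genes 21 higher and 0 lower, and immediate early genes 4 higher and 14 lower in the difference. Rises after Tamoxifen numbered 21 with the correction and 28 without it for interferon genes, and 9 and 14 for immediate early genes. Falls of squamous genes after Tamoxifen numbered 18 and 17. For KRT13, PPBP, TFF1 and FOSB the corrected differences were 3.11, 3.22, 3.17 and -2.51.

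**Figure D5:**
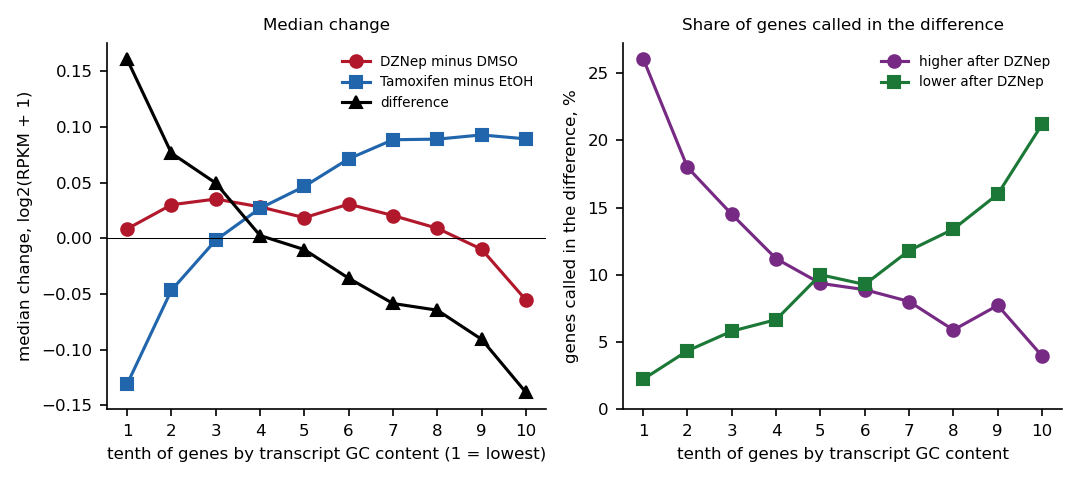
Left, the median change in log2(RPKM + 1) after DZNep, after Tamoxifen and of their difference in 10 equal bins of 10357 genes ordered by transcript GC content. Right, the percentage of genes in each bin called higher or lower in the difference; the higher share drops from 26.1% to 3.96% while the lower share climbs from 2.22% to 21.2%.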

How the data were processed

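RNA-seq libraries (500 ng RNA each) were read out with bcl2fastq 2.18, STAR and Cufflinks against mm9, per the submitters' processing notes; annotation, strand and treatment of multiply aligned reads are not given in the sources used here. Per the labels and file headers the authors deposited log2 values of RPKM, 1 table for each experiment; the values, with no negative numbers and many zeros, have the form log2(RPKM + 1), which was inferred. Whether both tables were normalized together is not stated, so the tests used only differences within a table. Where RPKM levels of the 2 experiments are described side by side, they were not tested and may not share a scale. Of the genetic table, 27 rows with gene names turned into dates and 2 blank rows were left out, as were 81 short RNA rows.

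Changes were tested with limma 3.58.1 in R 4.3.3 (mean trend, two-sided, Benjamini-Hochberg over the 10913 genes, threshold 0.05). The DZNep fit had 4 residual degrees of freedom, the Tamoxifen fit 2, and the fit of the difference, with 4 group means over all 10 libraries, 6. Fold changes on the log2(RPKM + 1) scale understate those of weakly expressed genes. A gene counted as DZNep only or Tamoxifen only where it was called in that experiment and in the difference and not in the other. RPKM keeps no absolute depth; RPKM totals per library were 468898 to 512150 and 15021 to 15382 genes were above 0. GC content was the median over a gene's GENCODE transcripts, matched by symbol. Promoters came from RefSeq in GRCm38.p6, with no mm9 coordinates used. The procedure was tested on simulated data.

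Named genes were EZH2, those with the largest differences, the leading members of each class, and in each of 34 lists the 3 of smallest p or all called where 6 or fewer were; other list members were chosen after their values were seen. The members and lists were chosen with earlier results of these data known. Lists were described by counts and medians, without set tests. A few genes and 1 list are not reported here. Alternatives were the pseudocount, filters, scaling, variance models, pairing by replicate number, leaving out each library, and a GC correction (lowess, span 0.3) added after seeing the data.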

Additional observations from a re-analysis of the deposited data

Results flagged for a closer look

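For the genes given here the mean changes after the 2 treatments had opposite signs, both changes passed the limma test, and the difference itself was called; values are differences on the log2 scale, DZNep change minus Tamoxifen change, with their adjusted p given for the largest.

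Up after DZNep and down after Tamoxifen were PPBP (3.33, adjusted p = 3.78e-08), TFF1 (3.10), KRT13 (3.05, adjusted p = 9.85e-09), KRTDAP (2.32), UPK3A (2.06), KRT16 (1.87), 2210407C18RIK (1.87), CXCL3 (1.68), IL18 (1.66) and KRT14 (1.34). The same direction was seen with smaller differences in DMKN (1.21), TRP53INP1 (1.18), PSCA (1.09), HPGD (1.00), the histone gene HIST1H2BC (0.98), CCNG1 (0.83) and SLC7A11 (0.64).

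Down after DZNep and up after Tamoxifen were FOSB (-2.59, adjusted p = 1.99e-05), ATF3 (-1.82), NR4A1 (-1.31), LAMB1 (-1.30), WIF1 (-1.27), FOS (-1.03), PHYHD1 (-1.02), TNFAIP2 (-0.80) and EGLN3 (-0.62), the last a prolyl hydroxylase that marks hypoxia-inducible factor for degradation. Treated and control libraries did not overlap for these genes in either experiment, except for EGLN3, where DZNep 1 (135.57 RPKM) lay just above DMSO 1 (135.34). CXCL3, CCNG1, TNFAIP2 and EGLN3 were no longer called after Tamoxifen once libraries were corrected for GC content.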

How the results depend on the processing

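No gene named by rule reversed. All 122 opposite genes kept opposite signs in every alternative in which they were tested (117 of 117 with GC correction, 121 of 121 without EtOH 2, 91 of 91 with a mean of at least 5 RPKM). With no filter on low values 0 genes passed after Tamoxifen in limma (3232 at an unadjusted p under 0.05, against 3049 with the filter), so shared, opposite and Tamoxifen-only genes all numbered 0; with short RNA rows kept 391 passed, leaving 88 shared, 74 opposite and 185 Tamoxifen-only genes. Calls from 1 fit of all libraries gave 272 shared and 222 opposite genes, and GC correction 193 Tamoxifen-only genes. Deviations of same-numbered samples correlated at -0.41, 0.17 and -0.20 in the chemical experiment and at 0.23 in the genetic one, which has 2 pairs. These few values do not settle, in either experiment, whether the numbers paired samples. A replicate block gave 901 higher and 749 lower differences, with 2649 Tamoxifen calls. It gave 392 shared, 313 opposite, 663 DZNep-only and 528 Tamoxifen-only genes. Leaving out 1 library, the difference was higher for 637 to 1372 genes and lower for 493 to 1180; shared genes numbered 49 to 622, opposite 40 to 445, DZNep-only 844 to 1599 and Tamoxifen-only 54 to 693. A genetic group left with 1 library was assumed to vary like the others. The EZH2 difference of -0.36 lost its call with no filter (adjusted p 0.0840), with short RNA rows (0.0566) and with the replicate block (0.0623), as did its value of -0.33 with each median change set to 0 (0.0539); its value ran from -0.49 to -0.22 over the libraries left out. Setting each median change to 0 raised the share of higher calls from 52.9% to 59.7%, and without EtOH 2 it was 48.6% (1045 higher, 1105 lower). Depth is unknown from RPKM and bounds what weakly expressed genes can show.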

Other observations

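The list counts below are read against all genes tested. Of these, 18.3% rose and 12.8% fell after DZNep, and 2.69% rose and 3.79% fell after Tamoxifen. In the difference 11.4% were higher and 10.2% lower. Sterol synthesis genes included falls after Tamoxifen only. Of 42 sterol and fatty acid genes tested, 4 rose and 3 fell after DZNep, 0 rose and 6 fell after Tamoxifen, and 7 were higher and 2 lower in the difference. IDI1, which isomerizes isopentenyl diphosphate, measured 96.9, 84.1 and 80.4 RPKM in DMSO and 81.6, 90.1 and 95.8 in DZNep, and 87 and 95.7 in EtOH and 56.1 and 60.5 in Tamoxifen. Only the Tamoxifen libraries were apart, and the difference was 0.67 (SE 0.12; adjusted p = 0.00290) by limma. CYP51 (-0.32) and MSMO1 (-0.27), which demethylate sterols, also fell after Tamoxifen only. ACSS2, which makes acetyl-CoA from acetate, rose after DZNep only (0.66), whereas the regulator SREBF1 fell after DZNep (-0.32) with a difference of -0.62.

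Of 32 glycolysis and hypoxia genes tested 2 rose and 9 fell after DZNep, 1 rose after Tamoxifen, and 1 was higher and 6 lower in the difference. LDHA, lactate dehydrogenase, had a difference of -0.43 and ANKRD37, a target of hypoxia-inducible factor, of -0.58. Among 49 ATF4 and unfolded protein genes 12 rose and 5 fell after DZNep, and 3 rose and 2 fell after Tamoxifen. In the difference 5 were higher and 5 lower, near the shares of all genes tested. NUPR1, a stress-induced chromatin protein, measured 459.7, 459.9 and 442 RPKM in DMSO and 929.6, 1002 and 909 in DZNep, and 483 and 337 in EtOH and 492 and 434 in Tamoxifen. DZNep libraries stood far above the rest, a difference of 0.86 (SE 0.17; adjusted p = 0.00375) by limma, while PSAT1, of serine synthesis, was lower at -0.46.

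In the methionine cycle, on which DZNep acts, 8 of 25 genes rose after DZNep, 0 passed after Tamoxifen, and 3 were higher and 1 lower in the difference. ADK, adenosine kinase, rose after DZNep only, from 13.9, 12.7 and 12.2 RPKM to 18.4, 18.7 and 22, with a difference of 0.57. AHCY, the enzyme DZNep blocks, changed by 0.19 and 0.11, neither called. Of 28 metallothionein and oxidative stress genes 6 were higher and 1 lower in the difference, with HMOX1, heme oxygenase, at 0.33 and OSGIN1 at -0.63. Of 32 heat shock genes 2 were higher and 1 lower, below the shares of all genes tested, with HSPH1 at 0.34 and HSPA4L at -0.54. Of 17 oestrogen receptor targets 3 rose and 2 fell after Tamoxifen, and TFF1, KRT13 and FOS moved in opposite directions. LTF, lactoferrin, rose after Tamoxifen only (0.29) and CCND1, cyclin D1, fell after DZNep only (-0.23).

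Markers of other cell types were mostly under the filter. Of 23 immune markers 3 were tested, CD14, CD52 (-0.63) and CD68 (0.17, not called); of 20 fibroblast and smooth muscle markers 2 were, the proteoglycan DCN (0.79) and FBLN1 (-0.43); of 14 endothelial markers EGFL7 was (-0.10, not called). Of 14 neuroendocrine markers ENO2 (-0.65) and SOX2 (0.57) were tested.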
